A study of Homo sapiens with 18 samples.

Results

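The genes followed here encode the histone H3 lysine 9 (H3K9) methyltransferases EHMT2 (G9a), EHMT1 (GLP), SETDB1 and SUV39H2 and the zinc-finger proteins WIZ and ZNF644, which bind the G9a/GLP complex. They are 6 genes whose transcription starts (hg19) were given, and a gene counted as called in a library when a MYC peak overlapped the 2 kb on either side of its start. Their peaks fell into 8 of the 43222 regions obtained by merging all peak lists. The cells were MCF10A.PM, a derivative of the immortalised, non-tumour breast epithelial line MCF10A, and all groups carried ectopic MYC (pBABE-hygro-MYC) and the PI3K mutant H1047R (pMN-IRES-GFP-PI3KH1047R). A hairpin was induced with doxycycline (72 h, 2 µg/mL) from pLKO-tetON-puro in every group. The groups were shG9a_1 and shG9a_4, each with a different hairpin against G9a, and shSCR, with a scramble hairpin. MYC was immunoprecipitated from 10000000 cells with the homemade antibody N262 in 3 biological replicates per hairpin, and the 9 matched input samples were not analysed here.

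H3K9 methylation marks silent chromatin. G9a and GLP form a heterodimer that adds mono- and dimethylation, mainly in euchromatin; WIZ and ZNF644 link this dimer to chromatin. SETDB1 and SUV39H2 add trimethylation, SETDB1 largely at transposable elements through KRAB zinc-finger proteins and SUV39H2 at pericentric heterochromatin. MYC binds DNA as a dimer with MAX, with preference for the E-box CACGTG, and in cells with high MYC it is found at many active promoters. A hairpin acts on RNA, so a MYC peak at EHMT2 measures binding at the gene and not its transcript, and the loss of G9a was not measured in these peak lists.

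The peak lists differed widely in length. On chromosomes 1 to 22 and X they held 113, 11462 and 13068 peaks in shG9a_1, 11168, 17454 and 12922 in shG9a_4, and 29827, 34738 and 20118 in shSCR. The number of reads is not listed, but relative depth could be recovered from the peak values and, with the shSCR mean set to 1, was 0.840 and 1.09 in shG9a_1 replicates 2 and 3, 1.90, 1.05 and 2.65 in shG9a_4, and 1.04, 1.04 and 0.926 in shSCR. For shG9a_1 replicate 1 the value was 2.36, but it depends on a shortest peak of only 51 bp. That library called none of the 6 genes and only 0.767% of the 14209 regions called in all 3 shSCR libraries, so values are given with and without it. Libraries of 1 group were called biological replicates by the submitters.

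MYC was called at the start of 5 of the 6 genes in every shSCR library and at fewer of them in most shG9a libraries. The genes called numbered 0, 4 and 4 of 6 in shG9a_1, 3, 4 and 5 in shG9a_4, and 5, 6 and 5 in shSCR. ZNF644 and SUV39H2 had a peak in 5 of 6 shG9a libraries, EHMT2 and SETDB1 in 4, EHMT1 in 2 and WIZ in none, whereas all but WIZ had one in 3 of 3 shSCR libraries. The 6 genes are windows around given starts and the merged regions are peaks anywhere, so the 5 of 6 has no like share here. Of all merged regions, 32.9% were called in the 3 shSCR libraries. Of such regions 57.7 and 64.5% were called in shG9a_1 replicates 2 and 3, and 58.3, 77.3 and 66.3% in shG9a_4. Over the 5 genes, 20 of 30 pairs of a gene and a shG9a library carried a call, or 66.7%, against 54.1% for all 14209 such regions. Without shG9a_1 replicate 1 the share was 80.0%, against 64.8% for all such regions.

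By the number of calls, 2 of the 5 genes (SUV39H2 and ZNF644) were kept, meaning called in at least 5 of 6 shG9a libraries, and 36.9% of all regions called in the 3 shSCR libraries were kept too. The other 3 (EHMT2, EHMT1 and SETDB1) were called in 1 to 4 shG9a libraries, as were 53.6% of all such regions. None of the 5 was lost from all shG9a libraries, against 9.49% of all such regions. These numbers rest partly on single libraries: without shG9a_1 replicate 1, or without shG9a_4 replicate 1, 4 genes were kept, EHMT2 and SETDB1 being the additional ones. Without shG9a_1 replicate 1, kept meant called in at least 4 of 5 shG9a libraries, which 52.2% of such regions were; without shG9a_4 replicate 1, 41.95% were.

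**Figure D1:**
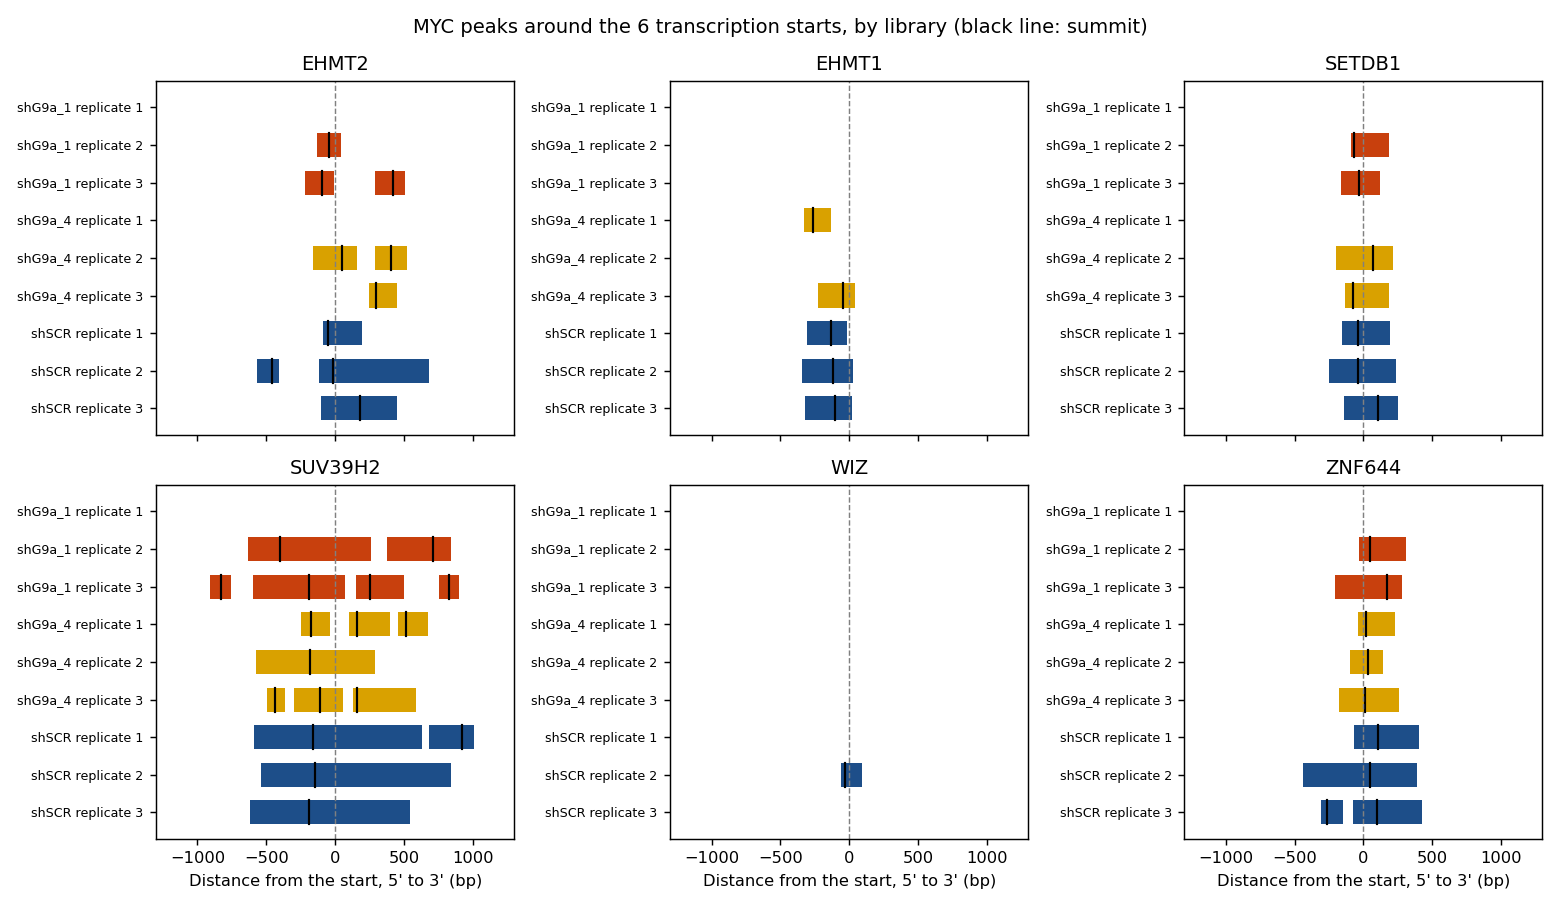
MYC peaks around each start in the 9 libraries. The horizontal axis is the distance from the start in bp, positive in the direction of transcription, bars are the authors' peaks, and black lines are summits. SUV39H2 had the widest stretch of peaks, WIZ had a peak in shSCR replicate 2 only, and EHMT1 had none in shG9a_1.

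The promoters of 4 genes are shown because they differ in the motif that MYC prefers. They are the 250 bases before the first start that RefSeq lists for each gene (GRCh38.p14), which need not be the same base as the hg19 start used for the peaks. Capitals mark E-boxes of the form CANNTG and the letters CACGCG, a non-canonical E-box, searched on both strands; CACGTG is itself a CANNTG.
EHMT2 (chr6:31897699-31897948, minus strand): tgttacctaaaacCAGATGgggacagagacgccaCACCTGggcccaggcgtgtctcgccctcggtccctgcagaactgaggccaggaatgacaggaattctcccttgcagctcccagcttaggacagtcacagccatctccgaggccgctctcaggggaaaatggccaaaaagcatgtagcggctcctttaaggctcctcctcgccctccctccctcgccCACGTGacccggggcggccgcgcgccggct
SETDB1 (chr1:150926013-150926262, plus strand): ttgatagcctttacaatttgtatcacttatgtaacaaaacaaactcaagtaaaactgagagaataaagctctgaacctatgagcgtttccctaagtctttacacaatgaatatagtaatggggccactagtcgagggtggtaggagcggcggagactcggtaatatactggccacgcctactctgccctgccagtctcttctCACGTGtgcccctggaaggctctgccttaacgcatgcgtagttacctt
SUV39H2 (chr10:14878616-14878865, plus strand): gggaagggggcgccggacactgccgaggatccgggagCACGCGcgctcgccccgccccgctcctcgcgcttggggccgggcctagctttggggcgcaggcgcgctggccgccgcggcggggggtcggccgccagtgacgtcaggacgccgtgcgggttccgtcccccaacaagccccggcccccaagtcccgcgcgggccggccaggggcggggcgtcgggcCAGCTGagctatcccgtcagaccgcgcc
ZNF644 (chr1:91022036-91022285, minus strand): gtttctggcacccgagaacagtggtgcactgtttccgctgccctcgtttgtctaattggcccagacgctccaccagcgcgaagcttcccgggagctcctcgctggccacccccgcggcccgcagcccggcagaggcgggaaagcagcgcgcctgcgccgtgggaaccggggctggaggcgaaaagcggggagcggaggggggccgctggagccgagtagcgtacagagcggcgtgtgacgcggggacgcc
CACGTG was present at EHMT2, where it began 30 bases before the start, and at SETDB1, where it began 48 bases before the start. SUV39H2 had CACGCG, 213 bases before its start, and CAGCTG, 28 bases before it. In these windows ZNF644 had neither motif, nor had EHMT1 or WIZ at their first starts. Of the first-listed promoters of 27305 genes, 6.49% held CACGTG, 9.62% held CACGCG on either strand and 62.2% held any CANNTG. Among 20 other genes of H3K9 methylation with a promoter in that table, 3 held CACGTG (CBX5, which encodes the H3K9 methylation reader HP1 alpha, and KDM4B and KDM4C, which encode H3K9 demethylases). The 2 genes with the highest within-list ranks of MYC, described below, had no CACGTG in this window. The window ends at the start, whereas MYC peaks reached beyond it.

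EHMT2, the target of both hairpins, had MYC peaks around its start. The percentile of the best peak within its list was 35.9 to 78.3 in shSCR and 17.8 to 48.4 in shG9a. The height at EHMT2 over the library background was lower in every shG9a library that called it than in any shSCR library. The fold enrichment and the percentile within the list overlapped between the groups. The merged region covered chr6:31864785-31865684 (hg19), from -220 to 679 bp relative to the start at 31865464 on the minus strand. It was not called in shG9a_1 replicate 1 or shG9a_4 replicate 1. The summit of the best peak lay at -53 to 178 bp from the start in shSCR, -95 to -48 bp in shG9a_1 and 296 to 406 bp in shG9a_4. The choice of best peak matters here. In shG9a_4 replicate 2 another peak, with its summit at 47 bp, had the higher pileup (9 against 8 fragments). Its −log10 q-value was lower (4.73 against 5.46). In shG9a_1 replicate 3 another peak had its summit at 418 bp and the same pileup as the best peak, 7 fragments. In shG9a_1 replicate 3 and shG9a_4 replicate 3 no peak covered the start itself. The authors' fold enrichment of the best peak, summit pileup over the background nearby, was 6.47 and 5.39 in shG9a_1 replicates 2 and 3, 6.09 and 4.90 in shG9a_4 replicates 2 and 3, and 6.74, 10.98 and 6.06 in shSCR. By q-value these peaks ranked 5926 of 11491 and 10139 of 13085 in shG9a_1, 11665 of 17489 and 10617 of 12940 in shG9a_4, and 14551 of 29854, 7545 of 34762 and 12739 of 20143 in shSCR. Both measures overlapped: the folds of 6.47 and 6.09 in shG9a lay above the lowest in shSCR, and the percentile of 48.4 in shG9a_1 replicate 2 lay above that of shSCR replicate 3, 35.9. Ranks are given within each list, sequences other than chromosomes 1 to 22 and X included. The lists differ in length, so the overlap of percentiles between groups is a description and was not tested.

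Peak height was expressed as the fragment pileup at the summit, recovered from the authors' fold and p-value, divided by the lowest background of the library. At EHMT2 it was 21.6 and 14.5 in shG9a_1, 16.8 and 11.6 in shG9a_4, and 24.6, 32.8 and 24.5 in shSCR. The groups did not overlap. The same held for 45.1% of the regions with this pattern of calls (all 3 shSCR libraries and 4 of the 5 shG9a libraries without shG9a_1 replicate 1). These heights rest on few fragments, 7 to 12 in shG9a and 10 to 16 in shSCR, and the exact 95% Poisson interval for the 8 fragments of shG9a_1 replicate 2 runs from 3.45 to 15.8. Where EHMT2 was not called, binding below the listing limit remains possible: at the lowest background, the lowest listed height was 7.54 in shG9a_4 replicate 1 and 19.4 in shG9a_1 replicate 1.

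EHMT1, whose product GLP pairs with G9a, was the gene with the fewest shG9a calls among those called throughout shSCR. Its region covered chr9:140513099-140513483, from -345 to 39 bp relative to the start at 140513444, so that the peak lay mostly upstream of the start. No shG9a_1 library called it, and shG9a_4 called it in replicates 1 and 3. Fold was 6.11 and 5.91 in those shG9a_4 libraries and 6.14, 6.94 and 9.24 in shSCR. The ranks were 7093 of 11185 and 8811 of 12940 in shG9a_4, and 16614 of 29854, 15864 of 34762 and 5989 of 20143 in shSCR. Height was 12.6 and 10.7 in shG9a_4, against 24.6, 26.6 and 29.4 in shSCR. Both shG9a_4 values lay below every shSCR value, as they did in 55.0% of the regions called in all shSCR libraries and in 2 of the same 5 shG9a libraries. The pattern of no call in shG9a_1 and at least 2 calls in shG9a_4 was shared by 7.45% of the regions called in all shSCR libraries. The shG9a_4 libraries that called EHMT1 had the recovered depths of 1.90 and 2.65. In 3 shG9a libraries (shG9a_1 replicates 2 and 3 and shG9a_4 replicate 2) the recovered depth was like that of shSCR. None of them called EHMT1, as was the case for 13.4% of the regions called in all shSCR libraries. The part of depth in the EHMT1 calls was not tested.

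SETDB1, the methyltransferase of retroelement silencing, had a stronger peak that varied widely between shG9a libraries. Its region covered chr1:150898562-150899064, from -253 to 249 bp around the start at 150898815. The fold was 4.74 and 7.28 in shG9a_1 replicates 2 and 3, 12.2 and 5.78 in shG9a_4 replicates 2 and 3, and 6.94, 11.96 and 8.49 in shSCR. Its ranks were 8989 of 11491 and 3912 of 13085 in shG9a_1, 2481 of 17489 and 7059 of 12940 in shG9a_4, and 10209 of 29854, 4972 of 34762 and 5554 of 20143 in shSCR. Height was 29.7 and 37.3 in shG9a_1, 41.9 and 15.5 in shG9a_4, and 37.9, 51.2 and 44.1 in shSCR. The groups overlapped, since shG9a_4 replicate 2 lay above shSCR replicate 1 while shG9a_4 replicate 3 was the lowest of all.

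SUV39H2, the trimethylase of pericentric heterochromatin, carried the broadest MYC binding of the 6 genes and was called in every library except shG9a_1 replicate 1. The region covered chr10:14920185-14921829, from -634 to 1010 bp relative to the start at 14920819. Fold was 9.25 and 12.2 in shG9a_1 replicates 2 and 3, 8.80, 10.9 and 8.61 in shG9a_4, and 10.95, 13.7 and 15.6 in shSCR. The peaks ranked 2340 of 11491 and 1664 of 13085 in shG9a_1, 2729 of 11185, 2524 of 17489 and 3259 of 12940 in shG9a_4, and 4600 of 29854, 3399 of 34762 and 1852 of 20143 in shSCR. In each of these 8 lists SUV39H2 stood high, at percentiles of 74.8 to 87.3 in shG9a and 84.6 to 90.7 in shSCR. Height was 32.4 and 39.4 in shG9a_1, 20.1, 48.2 and 20.4 in shG9a_4, and 44.6, 63.5 and 56.4 in shSCR. The groups overlapped through shG9a_4 replicate 2, which lay above shSCR replicate 1.

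The SUV39H2 signal was also listed as more separate peaks in 3 of the 5 shG9a libraries than in any shSCR library. Within the window it was listed as 2 and 4 peaks in shG9a_1 replicates 2 and 3, as 3, 1 and 3 peaks in shG9a_4, and as 2, 1 and 1 peaks in shSCR. The peaks covered 1360 and 1301 bp in shG9a_1, 727, 866 and 948 bp in shG9a_4, and 1548, 1383 and 1161 bp in shSCR, so that the shG9a_4 values lay below every shSCR value and the shG9a_1 values lay within the shSCR range. Over the 5245 regions called in these 8 libraries, 16.8 to 20.6% were listed as more than 1 peak in shG9a libraries and 9.76 to 20.3% in shSCR libraries. Median covered length there was 314 to 456 bp in shG9a and 505 to 660 bp in shSCR.

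ZNF644, which encodes a zinc-finger partner of G9a and GLP, had the other high-ranking peak, centred just downstream of the start. Its region covered chr1:91487245-91488113, from -442 to 426 bp relative to the start at 91487671 on the minus strand. Summits lay 13 to 170 bp downstream in shG9a and 50 to 104 bp downstream in shSCR. The fold was 5.93 and 10.5 in shG9a_1 replicates 2 and 3, 4.50, 9.29 and 9.22 in shG9a_4, and 10.6, 17.0 and 8.82 in shSCR. Ranks were 5309 of 11491 and 2450 of 13085 in shG9a_1, 9743 of 11185, 4636 of 17489 and 2825 of 12940 in shG9a_4, and 4308 of 29854, 2381 of 34762 and 5867 of 20143 in shSCR. The shG9a_4 replicate 1 peak stood apart from the rest, at percentile 12.03 of its list, against 53.8 to 81.2 in the other shG9a libraries that called it. Height was 37.8 and 33.2 in shG9a_1, 13.8, 31.4 and 21.3 in shG9a_4, and 51.3, 67.6 and 36.8 in shSCR. The groups overlapped only in that shG9a_1 replicate 2 lay above shSCR replicate 3.

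WIZ, the other zinc-finger partner, had a single weak peak in the whole series around the start searched. It covered chr19:15560669-15560825, from -63 to 93 bp relative to the start at 15560762 on the minus strand, and was called in shSCR replicate 2 only, the longest list. Its fold was 3.21, its pileup was 7 fragments and it ranked 34595 of 34762, with a −log10 q-value of 1.43. Of all merged regions, 34.6% were likewise called in 1 shSCR library and in no shG9a library. The peak was absent from lists limited to a −log10 q-value or a fold of at least 5. RefSeq lists further starts for WIZ, and peaks around those were not searched.

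**Figure D2:**
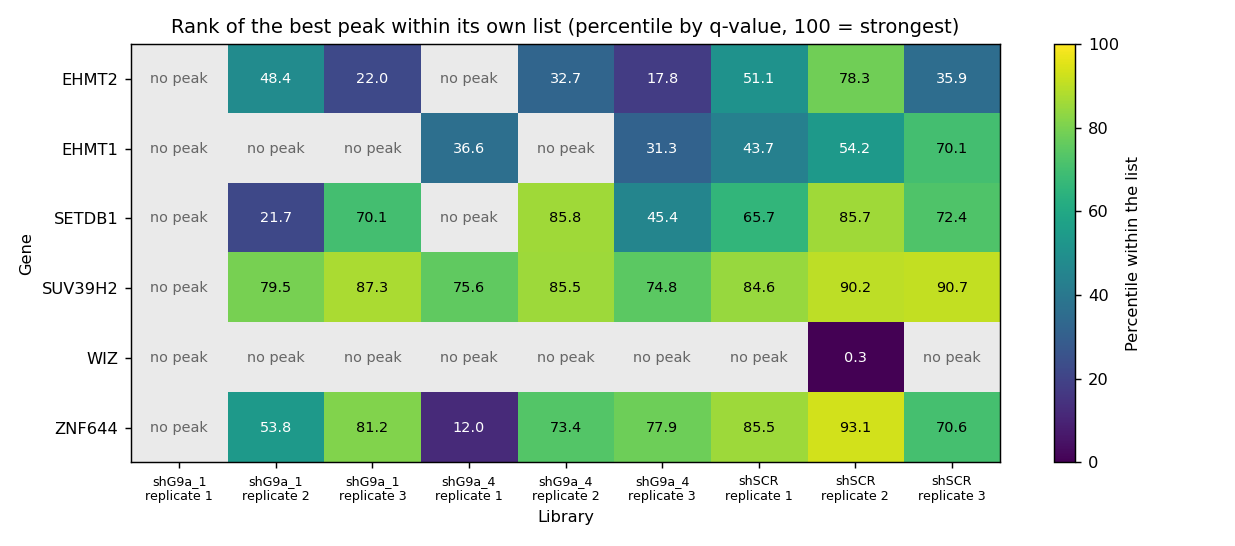
Percentile of the best peak of each gene (rows) by q-value within the list of each library (columns), with 100 the strongest. SUV39H2 stayed between 74.8 and 90.7 in the 8 libraries that called it, whereas ZNF644 was at 12.03 in shG9a_4 replicate 1 and SETDB1 at 21.7 in shG9a_1 replicate 2.

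In shSCR the order of the genes by mean within-list percentile was SUV39H2 (88.5), ZNF644 (83.0), SETDB1 (74.6), EHMT1 (55.99) and EHMT2 (55.1), with WIZ at 0.335 in the library that called it. Neighbours in this order, other than WIZ, overlapped across the 3 lists: EHMT2 ranged from 35.9 to 78.3, EHMT1 from 43.7 to 70.1, SETDB1 from 65.7 to 85.7, ZNF644 from 70.6 to 93.1 and SUV39H2 from 84.6 to 90.7. The number of shG9a calls followed the same order, apart from EHMT2, which was called more often than EHMT1. For regions in general, the share kept in shG9a differed by shSCR strength in the same direction. In the decile of shSCR strength that holds SUV39H2, 90.8% of regions were kept and in that of ZNF644 67.8%, against 48.3% in that of SETDB1 and 9.99% in that of EHMT2 and EHMT1. The counts were taken again with lists of equal length. With each list other than shG9a_1 replicate 1 limited to its 11168 top peaks, SUV39H2 and ZNF644 were called in 5 of 5 shG9a and 3 of 3 shSCR libraries, SETDB1 in 4 of 5 shG9a and 3 of 3 shSCR libraries, EHMT2 in 3 of 5 and 1 of 3, EHMT1 in 2 of 5 and 1 of 3, and WIZ in none. Over the 5 genes this made 19 of 25 pairs in shG9a and 11 of 15 in shSCR, or 76.0 and 73.3%, against 59.0% in shG9a and 65.7% in shSCR for all 14209 regions called in the 3 shSCR libraries.

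The comparison of the hairpins with the scramble hairpin asked whether MYC binding at these genes changes when G9a is lowered. Heights at SUV39H2 and ZNF644, the genes called in all 8 libraries other than shG9a_1 replicate 1, were lower with the G9a hairpins, and so were those of most regions. The log2 change, shG9a minus shSCR with both hairpins weighted equally, was -0.80 ± 0.33 (SE) at SUV39H2 (limma adjusted p = 0.0243) and -0.88 ± 0.33 at ZNF644 (limma adjusted p = 0.0155). Over the 5245 regions fitted the median change was -0.85, and 4006 of them, 76.4%, were lower at an adjusted p under 0.05. That count was 368 without shSCR replicate 2 and 2410, 2473 and 2496 without shSCR replicate 1, shG9a_1 replicate 2 and shG9a_1 replicate 3. EHMT2 and SETDB1 were called in 7 of the 8 libraries and enter a fit on 9630 regions called in at least 6, where libraries without a peak are left out, so that a low height in them does not count. In that fit EHMT2 changed by -0.78 ± 0.34 (limma adjusted p = 0.0429) and SETDB1 by -0.60 ± 0.34 (limma adjusted p = 0.107), beside 55.9% of regions called lower (5384 regions, and 4, 1444 and 3512 without shSCR replicate 2, shSCR replicate 1 and shG9a_4 replicate 1, but 8967 without shG9a_4 replicate 2). Leaving out single libraries ended several calls. SUV39H2 was not called without shG9a_1 replicate 2 or 3, shG9a_4 replicate 1 or 3, or shSCR replicate 2 or 3 (log2 change -0.87 to -0.69, limma adjusted p = 0.0514 to 0.132). ZNF644 was not called without shG9a_1 replicate 3, shG9a_4 replicate 1, or shSCR replicate 1 or 2 (-0.87 to -0.67, limma adjusted p = 0.0565 to 0.14). EHMT2 was called without shG9a_4 replicate 2 and in none of the other 7 settings that leave out a library (-0.92 to -0.64, limma adjusted p = 0.0515 to 0.202). It had no peak in shG9a_4 replicate 1, so leaving out that library changed only the regions fitted (11231 in place of 9630). SETDB1 was called without shG9a_4 replicate 2 (-0.96, limma adjusted p = 0.00202) and with array weights (-0.83, limma adjusted p = 0.00171). A two-sided exact permutation test over the 8 libraries gave p = 0.0714 for SUV39H2 and for ZNF644, with 0.0357 the smallest that the 56 splits allow, and both p-values were 0.0714 after Benjamini-Hochberg adjustment over the 2 genes.

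**Figure D3:**
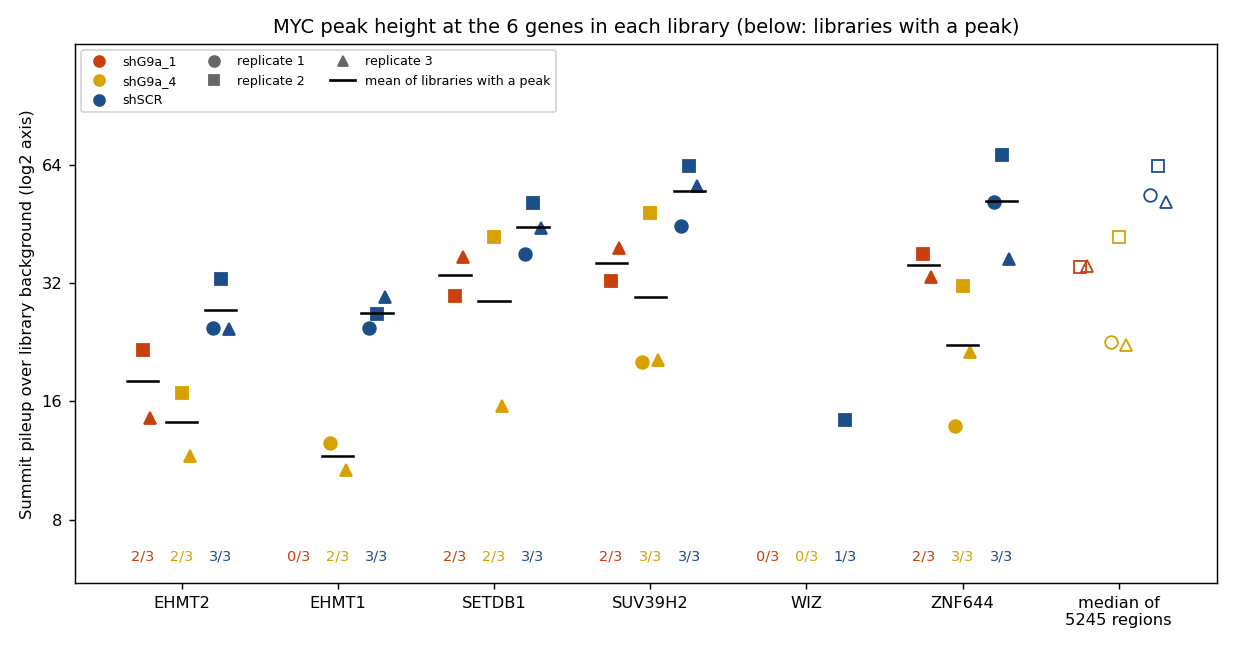
Summit pileup over library background (log2 axis) at each gene in each library; markers are replicates, bars are means over the libraries with a peak, the fractions below count those libraries, and open markers on the right are the medians of 5245 regions. Where they have a peak, shG9a_4 replicates 1 and 3 are the lowest points of a gene, and they also have the lowest medians, 22.6 and 22.3, against 51.5 to 63.5 in shSCR.

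With the hairpins fitted separately over all 8 libraries, the genes called were called with shG9a_4 and none with shG9a_1. None of these shG9a_4 calls held with the local background. Those at SUV39H2 and EHMT2 were also lost without shG9a_4 replicate 1 or 3 or shSCR replicate 2. EHMT2 had no peak in shG9a_4 replicate 1, so leaving out that library changed the regions fitted and none of the EHMT2 heights. With shG9a_4 the log2 change was -1.26 ± 0.36 at ZNF644 (limma adjusted p = 0.00297) and -1.01 ± 0.36 at SUV39H2 (limma adjusted p = 0.0105), beside 85.8% of regions called lower (4502 regions, and 2200, 2282 and 2446 without shSCR replicate 2, shG9a_4 replicate 3 and shG9a_4 replicate 1). In the fit on regions called in at least 6 libraries it was -0.95 ± 0.41 at EHMT2 (limma adjusted p = 0.0325) and -0.79 ± 0.41 at SETDB1 (limma adjusted p = 0.0696), beside 69.6% of regions (6700, and 1704, 2895, 3210 and 4240 without shSCR replicate 2, shG9a_4 replicate 3, shG9a_4 replicate 1 and shSCR replicate 1). Without shG9a_4 replicate 1 or 3 or shSCR replicate 2, neither SUV39H2 (limma adjusted p = 0.065 to 0.084) nor EHMT2 (limma adjusted p = 0.0561 to 0.23) was called with shG9a_4, and EHMT2 was not without shSCR replicate 1 (limma adjusted p = 0.0644). ZNF644 was called in each of the 8 settings that leave out a library from the fit on regions called in all of them, and SETDB1 without shG9a_4 replicate 2 (-1.51, limma adjusted p = 0.000456). With shG9a_1 the changes were -0.51 at ZNF644 and -0.60 at SUV39H2 (limma adjusted p = 0.297 and 0.236), beside 0.21% of regions called lower, and -0.61 at EHMT2 and -0.40 at SETDB1 (limma adjusted p = 0.289 and 0.449), beside 0.0214%. The 0.21% stands for 11 regions, against 2847 without shG9a_4 replicate 2, and none of the 4 genes was called with shG9a_1 under any of the alternatives run on it (lowest limma adjusted p = 0.0579, at SUV39H2). The difference between the hairpins depended on the setting. With all 8 libraries limma called it at none of the 4 genes and at none of the 5245 regions (267 had an unadjusted p under 0.05), and it was 0.75 at ZNF644 (shG9a_1 minus shG9a_4, limma adjusted p = 0.75). Without shG9a_4 replicate 2 it was called at 1854 of 5346 regions, all higher with shG9a_1, and at ZNF644 (1.05, limma adjusted p = 0.0165) and SUV39H2 (0.82, limma adjusted p = 0.0349). With array weights, which count libraries that vary more for less, it was called at 2511 of 5245 regions, at ZNF644 (1.09, limma adjusted p = 0.00187) and at SUV39H2 (0.79, limma adjusted p = 0.0176). Dividing by the local background at the summit in place of the library background gave -0.33 at SUV39H2, -0.68 at ZNF644 and -0.32 at EHMT2 for both hairpins, and no call (limma adjusted p = 0.619, 0.307 and 0.695). With shG9a_4 alone it gave -0.76 at SUV39H2, -0.81 at ZNF644 and -0.64 at EHMT2, again with no call (limma adjusted p = 0.275, 0.242 and 0.446).

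The deepest of the 8 libraries by recovered depth, shG9a_4 replicates 1 and 3, also had the lowest median heights. Depth and height are tied by construction, since the lowest background enters depth as the numerator and height as the divisor; it was 0.796 and 1.03 fragments in those libraries, against 0.370 to 0.488 in the other 6. In the 6 libraries of like depth, a set chosen after the data were seen and thereby also by that divisor, all 4 genes were called throughout, as were 45.4% of the regions called in all shSCR libraries. There the heights of the 3 shG9a libraries were 14.5 to 21.6 at EHMT2 against 24.5 to 32.8 in shSCR, and 31.4 to 37.8 at ZNF644 against 36.8 to 67.6 in shSCR. SUV39H2 had 32.4 to 48.2 in shG9a and 44.6 to 63.5 in shSCR, and SETDB1 had 29.7 to 41.9 in shG9a and 37.9 to 51.2 in shSCR. EHMT2 was the only 1 of the 4 whose groups did not overlap. The share of all regions without overlap in these 6 libraries was not counted. Over all 8 libraries, 56.1% of the 5245 regions called in each of them had no overlap. The log2 changes were -0.65 ± 0.27 at EHMT2 (limma adjusted p = 0.0562), -0.59 ± 0.28 at ZNF644 (limma adjusted p = 0.0771), -0.39 ± 0.27 at SUV39H2 (limma adjusted p = 0.224) and -0.24 ± 0.27 at SETDB1 (limma adjusted p = 0.446). None passed, whereas 31.6% of 6457 regions were called lower and the median change was -0.54. With shG9a_4, represented there by replicate 2 alone and assumed to vary like the other groups, the change was -0.68 at ZNF644, -0.69 at EHMT2 and -0.17 at SUV39H2 (limma adjusted p = 0.308, 0.302 and 0.797), against -0.60 at SUV39H2 with shG9a_1.

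Relative to the typical region of the same library, none of the 4 genes moved detectably. After each library's median log2 height was subtracted, the change with both hairpins was 0.04 ± 0.19 (SE) at SUV39H2 and -0.04 ± 0.20 at ZNF644, and in the fit on regions called in at least 6 libraries -0.01 ± 0.22 at EHMT2 and 0.17 ± 0.22 at SETDB1. The limma adjusted p lay between 0.863 and 0.994. On this scale 5 of 5245 regions were called in all, 0.0763% higher and 0.0191% lower (0.0415% higher in the fit on 9630 regions), against 490 at an unadjusted p under 0.05. In single libraries SUV39H2 lay -0.17 to 0.20 from the library median in shG9a and -0.26 to 0.13 in shSCR. EHMT2 lay -1.32 to -0.70 from it in shG9a and -1.13 to -0.95 in shSCR, and EHMT1, which was not fitted, lay -1.06 and -0.85 from it in shG9a_4 and -1.25 to -0.81 in shSCR. SETDB1 lay -0.52 to 0.08 in shG9a and -0.50 to -0.22 in shSCR, and ZNF644 -0.71 to 0.11 in shG9a and -0.49 to 0.09 in shSCR. The groups overlapped at all 5 genes on this scale. Smaller changes were not detectable with these errors.

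**Figure D4:**
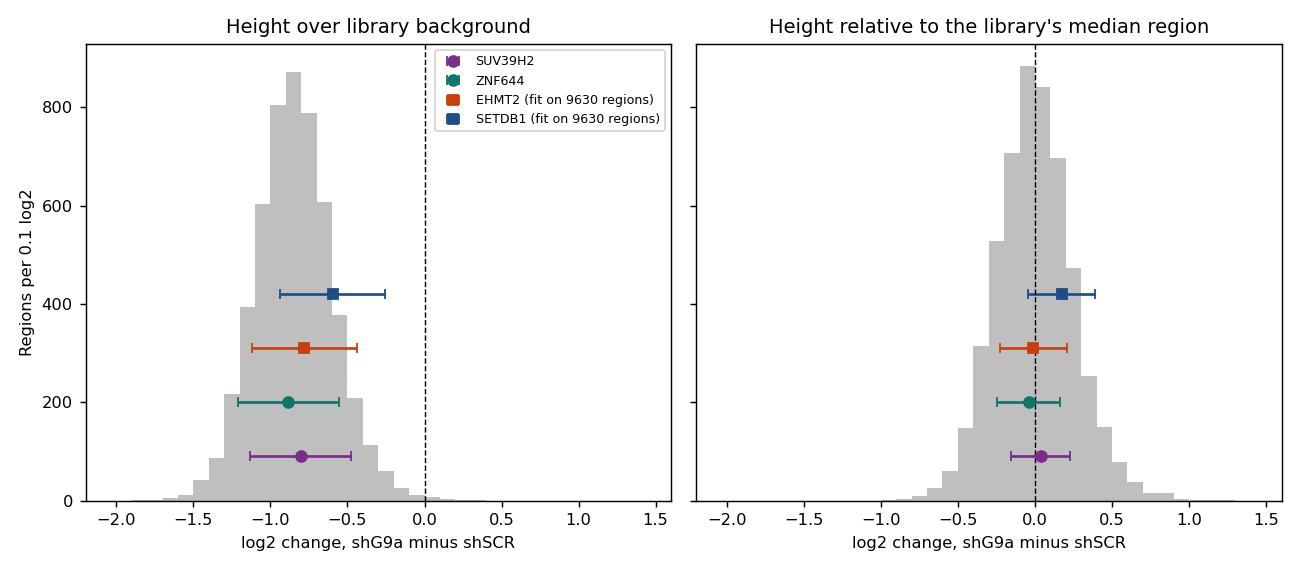
Distribution of log2 changes (shG9a minus shSCR, both hairpins) over the 5245 regions called in 8 libraries, on the scale of height over library background (left) and relative to the library's median region (right); points with bars are the 4 genes with their SE, of which EHMT2 and SETDB1 are not among the 5245 regions and come from the fit on 9630 regions, where libraries without a peak are left out. The genes lie within the bulk of the distribution on either scale, from -0.88 to -0.60 on the left and from -0.04 to 0.17 on the right.

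MYC peaks just outside the windows differed in how often they were called. A region at chr6:31869333-31870456, from -4992 to -3869 bp relative to the EHMT2 start, was called in all libraries except shG9a_1 replicate 1. Its height was 29.7 and 24.9 in shG9a_1, 12.6, 33.5 and 11.6 in shG9a_4, and 37.9, 57.4 and 44.1 in shSCR, so that every shG9a value was below every shSCR value, as in 56.1% of the 5245 regions called in the same 8 libraries. The log2 change was -1.09 ± 0.33 (limma adjusted p = 0.00553), and -0.25 relative to the median region; the call was lost without shSCR replicate 2 (-0.93, limma adjusted p = 0.0718) and with the local background (-0.52, limma adjusted p = 0.422). In RefSeq C2 is the divergent neighbour at the EHMT2 start itself, which does not tie the region upstream to C2. Starts of other genes in this stretch, which may lie inside that region, were not placed in hg19. The peaks do not tell which gene this upstream region belongs to. Upstream of EHMT1, chr9:140506039-140507017 (-7405 to -6427 bp) was called in shG9a_1 replicate 3, in shG9a_4 replicates 2 and 3 and in all shSCR libraries, with heights of 16.6, 20.96 and 18.4 in those shG9a libraries and 31.2, 38.9 and 31.9 in shSCR. Those shG9a heights lay below every shSCR height. The share of regions with such heights was not counted for this pattern of calls. It was 45.1 and 55.0% for regions called in 4 and in 2 of 5 shG9a libraries. A smaller region beside that one, chr9:140505454-140505760, was called in the 3 shSCR libraries only, with heights of 24.6, 24.6 and 19.6. Of all regions called in the 3 shSCR libraries, 9.49% had no shG9a call. Upstream of SUV39H2, chr10:14918022-14918187 (-2797 to -2632 bp) was called in shG9a_4 replicate 2 only, with a height of 20.96. Windows of 5 or 10 kb take in the region upstream of the EHMT2 start and count it for EHMT2, whichever gene it belongs to. EHMT2 then has a call in 5 of 6 shG9a libraries, and the 10 kb window gives EHMT1 a call in 4. No share over all regions was counted for these wider windows.

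The regions whose heights varied most like these genes across the 8 libraries were given by position only. For SUV39H2, after each library's median was subtracted, they were chr10:65280472-65281061 (Pearson r = 0.964), chr3:101395744-101396408 (r = 0.925) and chr19:13067641-13068200 (r = 0.917). For ZNF644 they were chr14:69259554-69260482 (r = 0.955), chr5:150965466-150965905 (r = 0.954) and chr19:2575901-2576400 (r = 0.924). They are the best of 5244 regions compared over 8 libraries that share their depth and background, and are a description without a test. SUV39H2 and ZNF644 were not among each other's 3 best.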

How the data were processed

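The 9 MYC libraries each have a peak list in hg19, with replicates kept apart, per the file headers and names. Tools listed in the submitters' processing notes are MACS2 2.1.0, STAR 2.5.2a, Picard 2.7.1 and SAMtools 1.3, with no roles; the caller's settings are not stated. The deposited columns are a whole-number score, the fold enrichment at the summit (a ratio of pileup to local background, 1 added to each) and the −log10 p-value and −log10 q-value of the peak, all as the authors' caller gave them. Fold, q-value and percentile were described by library and were not tested between lists.

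From fold and p-value a whole-number pileup was recovered for 100% of peaks in each list (within 0.001 on the −log10 p scale). Height is that pileup over the lowest background shared by at least 1% of the library's peaks; relative depth is that background over the library's shortest peak. Peaks overlapping by at least 1 bp were merged on chromosomes 1 to 22 and X, and the best peak by q-value stood for a region. limma 3.58.1 (R 4.3.3) was fitted to log2 height over regions called in 8 libraries, all groups in 1 fit, with Benjamini-Hochberg adjustment over the regions fitted and 0.05 as threshold. shG9a_1 replicate 1 was left out of the fits for its 113 peaks. Intervals on pileups cover counting error only. On simulated heights with that design, 46 of 50 regions lowered by 2 on the log2 scale, 14 of 50 lowered by 1, and 3 of 5045 unchanged regions were called. The simulation drew errors independently for each region and changed few regions, whereas the real heights of a library share its background. These rates therefore do not carry over to the fits of height over library background. Replicate numbers were not treated as pairs. Alternatives covered the window, peak threshold, equal peak numbers, overlap, background, missing calls, block, weights and each library left out; those with libraries of like depth, with 5 shG9a libraries and with the region upstream of EHMT2 were added after seeing the data. The genes, lists and tests were chosen with earlier results of these data known; all 6 genes are named. Starts of the other genes of H3K9 methylation were not placed in hg19, so their peaks were not analysed here; promoter sequences are RefSeq's.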

Additional observations from a re-analysis of the deposited data

How the results depend on the processing

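No called result changed direction under any alternative tried. Window width and a stricter fold or q-value left the summed calls within 1.5 times of 20 in shG9a and 16 in shSCR; with equal peak numbers they were 19 in 5 shG9a libraries and 11 in 3 shSCR libraries, and the overlap rule left the region states as given. With a −log10 q-value of at least 5, 1 gene was kept (SUV39H2), ZNF644 being called in 4 shG9a libraries, beside 33.9% of 10311 regions kept. Leaving out each library gave 2 to 4 genes kept and 1 to 3 partial.

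The counts of regions called by limma depended on the setting. Height over background with both hairpins gave 150 with local background, 2040 with libraries of like depth, and 368 to 5200 with a library left out, against 4006. With shG9a_4 it gave 275 with local background, 58 with like depth and 2200 to 5303 with a library left out, against 4502. With shG9a_1 it gave 2 on regions called in at least 6 of 8 libraries, 150 with shG9a_1 replicate 1 included, 22 with the highest pileup, 2934 with array weights, 2880 with like depth and 0 to 2847 with a library left out, against 11. Relative to the median region, both hairpins gave 0 with local background, 16 with array weights, 0 with like depth and 1 to 19 with a library left out, against 5. There shG9a_4 gave 0 with local background, 1 on regions called in at least 6 libraries, 13 with array weights, 0 with like depth and 0 to 17 with a library left out, against 6.

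Same-numbered libraries correlated by -0.02 to 0.15 in their deviations from the group means, and libraries of different number by -0.14 to 0.08. These deviations are tied within a group and were taken after each library's median was subtracted. The check therefore cannot show shifts of whole libraries and does not decide whether the numbers are pairs. With the replicate block, shG9a_1 gave 1521 regions over background, against 11 without it, and both hairpins gave 3 relative to the median region. SETDB1 was then called with shG9a_4 (-0.90, limma adjusted p = 0.0284). The permutation within replicate numbers gave p = 0.111 for SUV39H2 and ZNF644, the smallest its 18 splits allow. Pileups of 7 to 33 fragments limit each height.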
